A study of Mus musculus with 18 samples.

Results

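The transcriptome of MEFs (mouse embryonic fibroblasts) was compared between 24 h and 12 h after the cells had been moved from Rcm to Scm. Rcm is the medium with the serum under which MEFs resisted ferroptosis, a death driven by iron and lipid peroxides, and Scm is the medium with the serum that left them sensitive. The comparison used 6 of the 18 RNA-seq libraries: 3 were R-Scm at 12 h and 3 were R-Scm at 24 h, taken by the medium change and the hours named in their labels. Both groups were wild-type (WT) cells of 1 MEF line from the American Type Culture Collection, were grown in Rcm first, and differed in the hours in Scm. Cells kept in Rcm (the starting medium) and in Scm (the medium moved into), 3 libraries each, are given as reference levels, and cells moved the other way, from Scm to Rcm (S-Rcm 12 h and S-Rcm 24 h), as the opposite exchange. No group held cells that were given fresh medium of the same kind, so that the effect of a medium change as such, time in culture and time of day cannot be told apart from the effect of the serum.

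Several gene programs that fibroblasts run are read out below. Interferon-stimulated genes carry promoter elements bound by STAT and IRF factors and encode antiviral proteins. When sterols run low, SREBP2 leaves the endoplasmic reticulum, enters the nucleus and turns on the enzymes of cholesterol synthesis and genes of sterol uptake. The clock protein pair CLOCK and BMAL1 (gene Arntl) binds E-boxes and turns on Per and Cry genes, whose proteins repress it, and fresh serum can reset this loop in cultured fibroblasts. ATF4 is made when amino acids are short or unfolded protein builds up, and turns on amino acid transporters, amino acid synthesis and tRNA charging.

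The 6 libraries held 16468901 to 20313715 counts each. Most fibroblast genes were high in all of them: 13 markers summed to 10441 to 11350 CPM (counts scaled to a common library total with TMM factors) at 12 h and to 10826 to 14622 CPM at 24 h. Vim had the largest share of the sum (2954 to 4526 CPM). Lum was at or near 0, and Dcn was low (7.17 to 10.1 CPM at 12 h and 1.38 to 6.19 CPM at 24 h). Of the markers of other cell types, neural ones summed to 126 to 144 CPM at 12 h and 114 to 150 CPM at 24 h, mostly Sox2 and Nes with Sox10 at 0, and chondrocyte and osteoblast ones to 70.5 to 78.2 and 70.0 to 95.3 CPM, mostly Runx2 with Ibsp at 0. Macrophage markers summed to 15.8 to 19.5 CPM at 12 h and to 10.5 to 16.2 CPM at 24 h, mostly Cd14, with Adgre1 and Tyrobp at 0; endothelial markers stayed at 3.62 CPM or less and epithelial markers at 19.6 CPM or less. Within each group 1 library lay farthest from the other 2, by the root mean square of log2 differences over genes: replicate 3 of R-Scm at 12 h (0.537 against 0.508 and 0.490) and replicate 1 of R-Scm at 24 h (0.626 against 0.586 and 0.589). The main results are given with and without these libraries. The labels give no reason for their distance, and their part in the results beyond these values was not tested.

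A gene was called a DEG (differentially expressed gene) where its log2 fold change passed 0.58 in either direction and its adjusted p was below 0.05, by edgeR's quasi-likelihood test with Benjamini-Hochberg adjustment over the 15381 genes tested. Of these genes, 119 were DEGs (0.774%): 51 were higher at 24 h (0.332%) and 68 were lower (0.442%). In 118 of the 119 the 3 libraries at 24 h lay wholly above or below the 3 at 12 h, as they did in 15.2% of all genes tested. Falls were larger than rises, with a median log2 fold change of -1.28 among the lower DEGs and 0.77 among the higher ones, while the median over all genes was 0.0031. Without replicate 1 of R-Scm 24 h, 309 genes were DEGs (84 higher, 225 lower), which included 100 of the 119, and without replicate 3 of R-Scm 12 h there were 71. The fit took its spread from all 18 libraries. On the 6 libraries alone edgeR called 2 genes, 1 of them among the 119, and DESeq2 called 132, 94 of them among the 119. The labels do not say whether the 3 libraries of a group came from separate cultures, so that the p-values measure the spread between these libraries, which may be technical. In bulk RNA, fewer cells of a kind and less RNA per cell cannot be told apart.

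**Figure D1:**
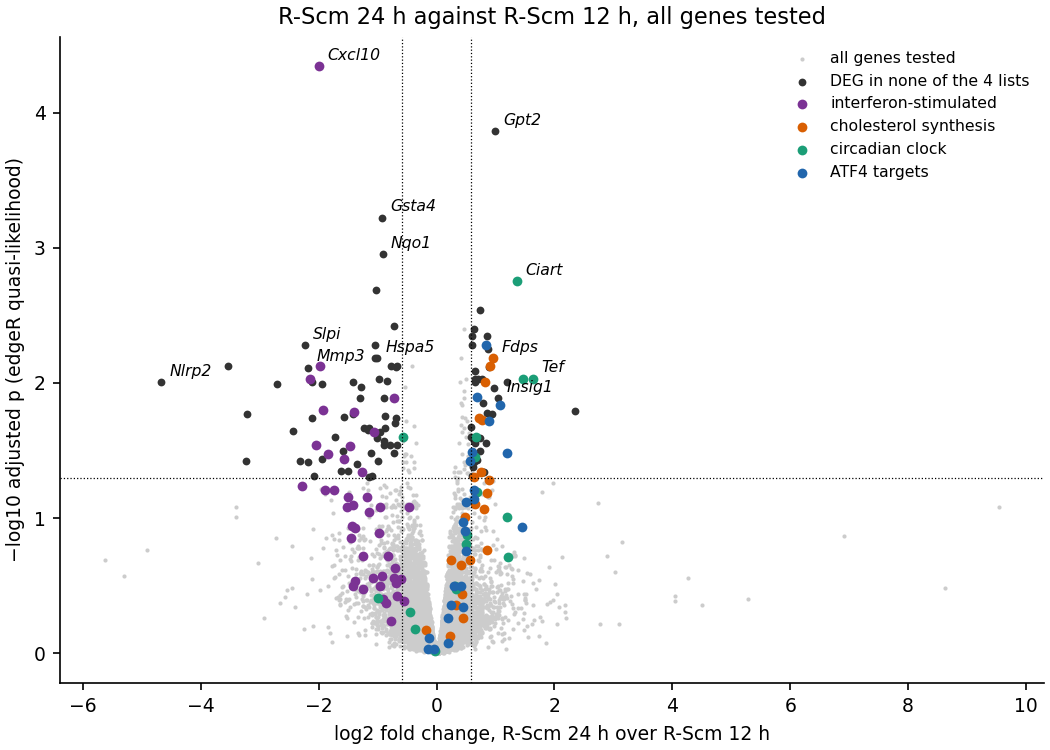
Each point is 1 of the 15381 genes tested. The x axis is the log2 fold change of R-Scm 24 h over R-Scm 12 h, the y axis is −log10 of the adjusted p, and dotted lines mark 0.58 and an adjusted p of 0.05. Interferon-stimulated genes (purple) lie to the left, and genes of cholesterol synthesis (orange), the circadian clock (green) and the ATF4 list (blue) lie mostly to the right; Cxcl10 has the smallest adjusted p (4.54e-05).

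The interferon-stimulated genes made up the clearest block of falls. All 43 listed genes were tested and all 43 had a negative log2 fold change, with a median of -1.25. Of the 43, 12 were DEGs (27.9%, against 0.774% of all genes tested). The 12 were Oasl1, Rsad2, Cxcl10, Iigp1, Mx1, Ifit1, Ifit3, Zbp1, Gbp2, Igtp, Tap1 and Ifit2. Many of these genes carry in the promoter the interferon-stimulated response element, searched here as TTCNNTTTC on both strands. It was present within 250 bases before to 50 bases after the gene start in 9.76% of 27025 mouse genes and in 21 of the 32 listed interferon-stimulated genes with a promoter in the RefSeq table (GRCm38.p6). The stretches of the 6 DEGs of the list that held it, of 9 with a promoter in the table, are shown from up to 40 bases before the first match to 20 bases after the last, on the strand of the gene, with the matches in capitals. They are chr19:34640740-34640833 (+), chr19:34583334-34583455 (+), chr5:92349074-92349139 (-), chr12:26456543-26456611 (-), chr3:142620565-142620633 (+) and chr11:58199482-58199550 (+), in this order.
Ifit1: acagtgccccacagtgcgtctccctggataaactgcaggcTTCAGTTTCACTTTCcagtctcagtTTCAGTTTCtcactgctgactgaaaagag
Ifit3: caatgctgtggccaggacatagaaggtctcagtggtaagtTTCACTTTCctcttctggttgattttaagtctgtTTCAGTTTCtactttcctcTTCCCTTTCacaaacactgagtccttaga
Cxcl10: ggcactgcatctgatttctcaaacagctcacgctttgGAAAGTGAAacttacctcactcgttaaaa
Rsad2: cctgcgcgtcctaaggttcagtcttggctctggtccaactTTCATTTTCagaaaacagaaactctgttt
Gbp2: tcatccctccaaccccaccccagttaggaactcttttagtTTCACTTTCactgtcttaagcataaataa
Igtp: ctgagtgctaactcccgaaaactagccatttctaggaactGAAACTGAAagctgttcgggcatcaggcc

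Ifit1 and Ifit3 held 3 matches each, and 2 of those in Ifit1 overlap. In Cxcl10 and Igtp the match reads on the opposite strand. A match is a description of these letters and says nothing of what was bound there.

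Cxcl10 encodes a chemokine that draws T cells and was the DEG with the smallest adjusted p. Its level was 55.7, 62.5 and 68.9 CPM in the 3 libraries at 12 h and 14 to 18.3 CPM at 24 h. The 12 h libraries were all above the mean of Rcm (23.9 ± 1.61 CPM, SD, n = 3), and the 24 h libraries were all below it and above that of Scm (5.49 ± 1.10 CPM). The level fell 3.99-fold (log2 fold change -1.99 ± 0.17 SE, adjusted p = 4.54e-05), and Cxcl10 was the 1 gene of the 119 that was called in all 16 alternative analyses.

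Genes of the antiviral response to foreign RNA followed. Ifit1, which binds viral RNA without host cap marks, had 95.5, 132 and 141 CPM at 12 h and 61.6, 22.5 and 18.4 CPM at 24 h. Replicate 1 of 24 h lay apart from the other 2, near the Rcm mean of 66.5 CPM. Ifit1 fell by 1.85 on the log2 scale (SE 0.39, adjusted p = 0.0337), and by 2.59 without that library (adjusted p = 0.000375). Ifit3, its partner, had 53 to 73.8 CPM at 12 h and 39.2, 12.6 and 11.1 CPM at 24 h (log2 fold change -1.57). Rsad2, which encodes viperin, fell from 3.23 to 5.15 CPM to 0.884 to 1.06 CPM, a change of -2.05 on the log2 scale (adjusted p = 0.0287). Oasl1, a regulator of IRF7 translation, fell by 2.14 on the log2 scale, and its 24 h libraries (0.766 to 1.01 CPM) lay close together. Mx1, a GTPase that blocks influenza virus and is annotated as a polymorphic pseudogene in the reference strain, had 2.63 to 3.29 CPM and then 0.408 to 1.24 CPM (log2 fold change -1.93). Ifit2 had the smallest fall of the DEGs in the list (log2 fold change -0.73, adjusted p = 0.013).

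The interferon-inducible GTPases, which attack the vacuoles of intracellular microbes, were listed after their values had been seen, and 8 of them are in the interferon-stimulated list too. Of the 15 tested, 7 were DEGs (46.7%, against 0.774% of all genes) and all 15 were negative (median -1.42). The count was 12 without replicate 1 of R-Scm 24 h, 1 or 2 without either other library of 24 h or without replicate 3 of R-Scm 12 h, and 4 without replicate 1 or replicate 2 of R-Scm 12 h. Gbp6 fell by 2.11 and Iigp1 by 1.98 on the log2 scale, followed by Gvin1 (-1.50), Gbp2b (-1.42), Gbp2 (-1.40), Gbp9 (-1.36) and Igtp (-1.27). Gbp2 had 43.4, 49.7 and 61.3 CPM at 12 h and 31.2, 14.9 and 12.6 CPM at 24 h. Members of the Gbp family are similar in sequence, and how reads with several alignments were counted is not given, so that the split between them is uncertain; Gbp6 and Gbp9 also overlap exons of neighbours on the same strand, and Igtp those of Irgm2. Genes outside the list with a known place in the interferon response were also DEGs: Ifi44l (-1.94), Cmpk2 (-1.43), Cd274, the ligand PD-L1 (-1.16), and the class I MHC gene H2-Q4 (-0.89). Gm4070, a gene model with no function given here, fell by 1.95 from 34.1 to 72.4 CPM to 10.7 to 14.6 CPM. Cxcl10 shares 133 exonic bases with Art3 on the other strand, and Tap1 overlaps Psmb9 in the same way.

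The number of interferon-stimulated DEGs changed with most libraries, and 1 library at 24 h stood apart. The mean log2 CPM of the 43 genes was 4.17, 4.26 and 4.52 in the 12 h libraries. At 24 h it was 3.79 in replicate 1 and 2.52 and 2.46 in the other 2. In Rcm it was 3.57 to 3.86 and in Scm 1.23 to 1.31. Replicate 1 at 24 h thus lay within the range of Rcm, and the other 2 lay between Rcm and Scm. Its labelled group was used throughout, and whether its label or culture is as stated was not tested. Without it, 39 of the 43 genes were DEGs with a median of -1.95. Without replicate 3 of R-Scm 12 h, 4 of the 43 were DEGs with a median of -1.18. Leaving out replicate 2 or replicate 3 of R-Scm 24 h gave 5 and 3 DEGs, and leaving out replicate 2 of R-Scm 12 h gave 7. The median stayed negative whichever library was left out (-1.95 to -0.98).

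**Figure D2:**
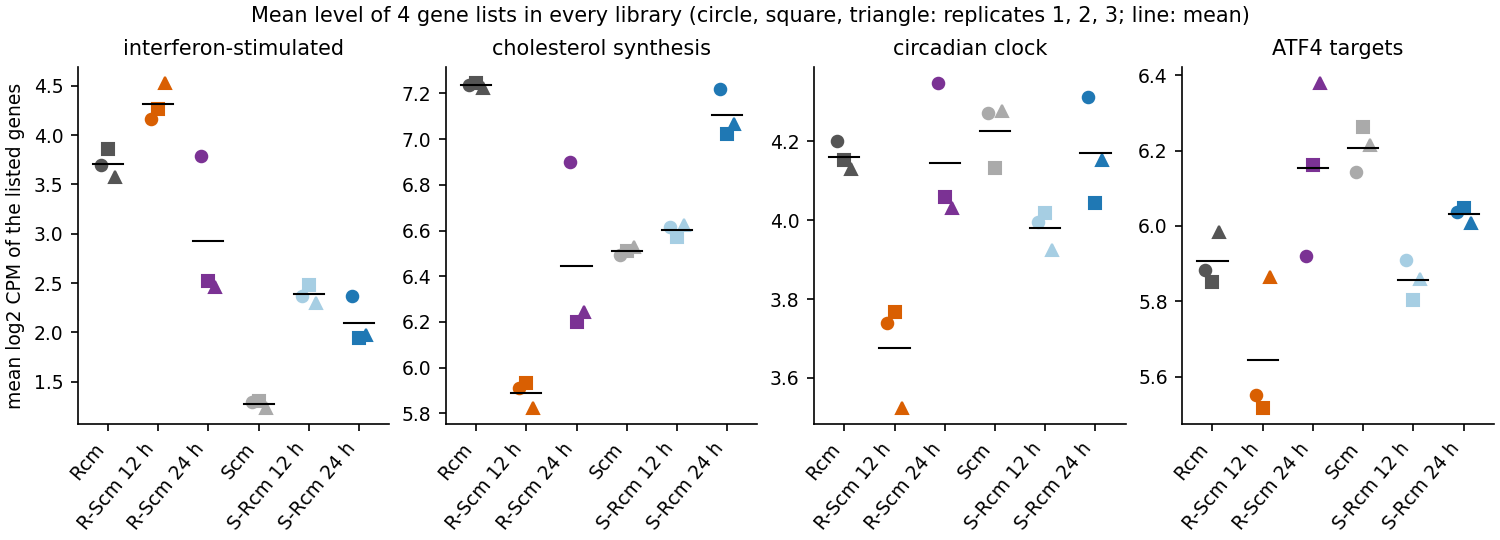
The y axis of each panel is the mean log2 CPM of the genes of a list in 1 library, for the 6 groups of 3 libraries on the x axis; the marker shape gives the replicate and the line the mean of the group. At 24 h replicate 1 of R-Scm (purple circle) is at 3.79 for the interferon-stimulated genes against 2.52 and 2.46, and at 6.90 for cholesterol synthesis against 6.20 and 6.24.

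A few inflammatory and matrix-degrading genes fell. Of the 19 chemokine and inflammatory genes tested, 3 were DEGs (15.8%, against 0.774% of all genes), all lower at 24 h (list median -0.26). Ccl7, a monocyte chemokine, had 97.1, 109 and 163 CPM at 12 h and 49.4, 71.0 and 58.4 CPM at 24 h, and the groups did not overlap (log2 fold change -1.05 ± 0.16 SE, adjusted p = 0.00653). Ccl2, its neighbour in function, went from 205, 208 and 356 CPM to 82.8, 136 and 170 CPM (log2 fold change -0.99, adjusted p = 0.0381). Cxcl1, which draws neutrophils, fell by 1.24 on the log2 scale, and Il6 had -1.69 without passing the test (adjusted p = 0.19). Replicate 3 of 12 h was the highest library for Ccl2, Ccl7 and Cxcl1, and without it only Ccl7 of the 3 stayed a DEG.

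Mmp3 (stromelysin-1, chr9:7445822-7455975) and Mmp13 (collagenase-3) cut matrix proteins. They were the 2 DEGs among 22 proteases and inhibitors tested (9.09%, against 0.774% of all genes, list median -0.28). Mmp3 had 864, 874 and 1488 CPM at 12 h and 117, 318 and 275 CPM at 24 h, against 165 ± 12.6 CPM in Rcm and 218 ± 10.1 CPM in Scm. It fell 4.55-fold (log2 fold change -2.18 ± 0.34 SE, adjusted p = 0.00768). Mmp13 went from 55.9, 60.7 and 90.4 CPM to 3.48, 19.2 and 15.6 CPM (log2 fold change -2.43, adjusted p = 0.0226). Replicate 1 of 24 h was the lowest library for both genes and replicate 3 of 12 h the highest. Without the former the changes were -1.86 and -1.99, and both genes were DEGs. Without the latter they were -1.88 and -2.19, and Mmp13 was no DEG (adjusted p = 0.0844), with a list median of -0.07. Mmp10, from the same cluster on chromosome 9, had -1.76 (adjusted p = 0.0912). Slpi, an inhibitor of neutrophil elastase, fell by 2.24, and Ptx3, a soluble pattern receptor, fell by 1.28 on the log2 scale. Ppbp, a platelet chemokine, had 11.7, 9.42 and 51.3 CPM at 12 h and 2.71 to 6.38 CPM at 24 h; its fall of 2.32 was 1.13 without replicate 3 of 12 h, and it was then no DEG (adjusted p = 0.109). Spp1 (osteopontin) fell 2.06-fold from 310 to 511 CPM to 188 to 231 CPM.

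Nlrp2, a gene of the inflammasome family, had the largest fitted fall of the DEGs. It had 18, 30 and 87 counts at 12 h and 3, 0 and 2 counts at 24 h. The log2 fold change was -4.67 ± 0.82 SE (adjusted p = 0.00982) and -3.64 without replicate 3 of 12 h, and its size rests on these few counts at 24 h. Mpeg1, which encodes a pore-forming protein best known from macrophages, had 1.59 to 2.51 CPM and then 0.102 to 0.471 CPM (log2 fold change -2.70, adjusted p = 0.0101). The summed macrophage markers, given above, were lowest in replicate 1 of 24 h, with Adgre1 and Tyrobp at 0 in all 6 libraries; the ranges overlapped, and their part in the fall of Mpeg1 was not tested. Casp4, the sensor of intracellular lipopolysaccharide, fell by 2.11 on the log2 scale from 1.29 to 3.24 CPM to 0.412 to 0.714 CPM.

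Genes of cholesterol synthesis moved the other way. Of 21 genes, all tested, 20 had a positive log2 fold change (median 0.66). Of the 21, 7 were DEGs (33.3%, against 0.774% of all genes), all higher at 24 h. They act along the pathway: Idi1 and Fdps make the isoprenoid units, Sqle oxidises squalene, and Cyp51, Msmo1 and Nsdhl act on lanosterol and the sterols made from it. Hmgcs1, which makes HMG-CoA, had 0.80 without passing the test (adjusted p = 0.0848). The sterol regulatory element, in the form TCACNCCAC, was held by 1.44% of all promoters and by 1 of the 16 listed genes with a promoter in the table (Hmgcs1). None of the 4 DEGs among the 16 held it, and with so few promoters and so rare a form this says little about them. A CCAAT box was held by 41.1% of all promoters, by 15 of the 16 and by all 4 DEGs.

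Fdps, the farnesyl diphosphate synthase (chr3:89093588-89101959), had 106, 103 and 101 CPM at 12 h and 280, 161 and 163 CPM at 24 h. The 12 h libraries were nearly identical and all lower, while replicate 1 of 24 h was the highest. The means of Rcm and Scm were 388 ± 3.76 and 188 ± 9.07 CPM. Fdps rose 1.95-fold (log2 fold change 0.96 ± 0.15 SE, adjusted p = 0.00659), and 0.65 on the log2 scale without replicate 1 of 24 h. Its processed copies Gm5873 (1.20) and Gm3571 (0.83) were DEGs too. Reads of the 3 loci may be shared, and the sum of their counts rose by 0.95 (adjusted p = 0.00496).

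Nsdhl had 31.7, 33.2 and 30.6 CPM at 12 h and 79.7, 52.5 and 47.0 CPM at 24 h (log2 fold change 0.91, adjusted p = 0.00752). Sqle had 149 to 160 CPM and then 344, 232 and 238 CPM (log2 fold change 0.82). Cyp51 (0.77), Idi1 (0.75) and Msmo1 (0.64) rose less. In each of the 7 genes but Msmo1 replicate 1 was the highest library at 24 h. Without it 3 of the 7 were still DEGs and the list median was 0.35. Leaving out replicate 1 or replicate 3 of R-Scm 12 h also left 3 DEGs, and leaving out replicate 2 left 4. The median stayed positive whichever library was left out (0.35 to 0.81).

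Of 21 tested genes of sterol regulation and uptake, 3 were DEGs (14.3%, against 0.774% of all genes), and the list median was 0.14. Without replicate 3 of R-Scm 12 h, or without replicate 1 of R-Scm 24 h, 1 was a DEG, and the median was 0.12 and 0.08. Insig1 was then no DEG (adjusted p = 0.0645) in the former case and had 0.70 (adjusted p = 0.00976) in the latter. Insig1 (chr5:28071363-28078662) encodes the protein that holds SREBPs in the endoplasmic reticulum and is itself a target of them. It had 46.1, 50.1 and 43.2 CPM at 12 h and 138, 67.9 and 82.8 CPM at 24 h (log2 fold change 1.05 ± 0.19 SE, adjusted p = 0.013), below the Rcm mean of 175 ± 5.26 CPM. Srebf2, the gene of SREBP2, rose by 0.62 (adjusted p = 0.0419), whereas Srebf1 had 0.14 (adjusted p = 0.598).

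Fatty acid synthesis showed 0 DEGs among 24 genes tested by edgeR's quasi-likelihood test, and 0 by DESeq2, with a median of 0.18 (0.059 without replicate 1 of R-Scm 24 h). Of the 24, 8 were higher at an unadjusted p under 0.05, a level that 2092 of all 15381 genes reached in either direction. Fasn, the fatty acid synthase, passed the adjusted p but not the fold threshold (log2 fold change 0.56, adjusted p = 0.0235). Scd1, the main desaturase that makes monounsaturated fatty acids, had 200, 222 and 221 CPM at 12 h and 435, 237 and 215 CPM at 24 h. Replicate 1 of 24 h was at the Rcm level (431 ± 19.3 CPM) and replicate 3 lay within the range of 12 h, and Scd1 was no DEG (log2 fold change 0.46, adjusted p = 0.275, and 0.08 without that library). Pcyt2, of phosphatidylethanolamine synthesis, rose by 0.65, and Lrp1, an endocytic receptor, by 0.64.

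**Figure D3:**
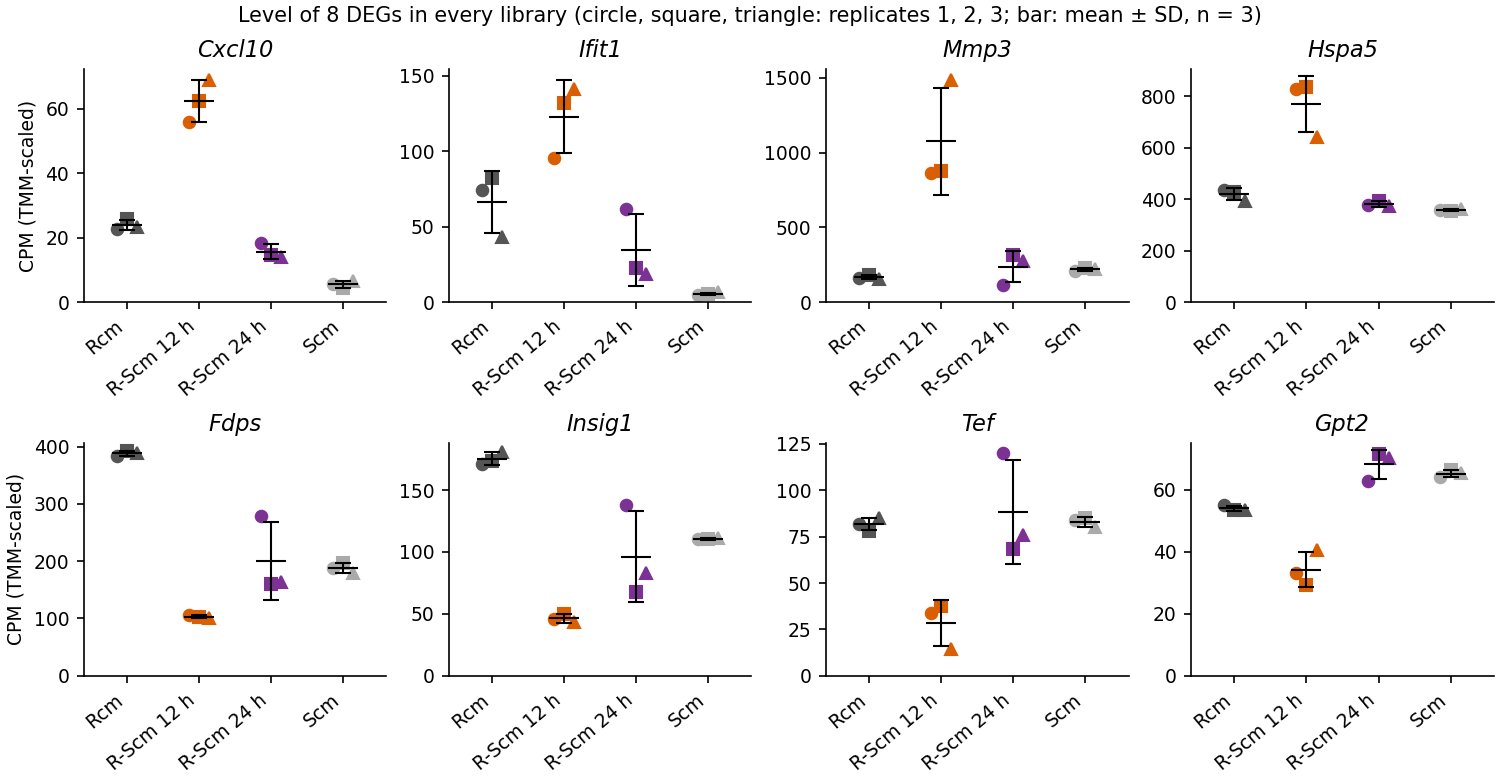
The y axis is the level in CPM, from 0, of 8 DEGs in each library of Rcm, of R-Scm at 12 h and at 24 h, and of Scm; the marker shape gives the replicate and the bars the mean ± SD (n = 3). Cxcl10, Ifit1, Mmp3 and Hspa5 are highest at 12 h and lower in every 24 h library, and Fdps, Insig1, Tef and Gpt2 are lowest at 12 h and higher in every 24 h library.

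Some circadian clock genes rose at 24 h. Of 17 tested, 12 were positive and 5 negative, and the list median was 0.52. Of the 17, 5 were DEGs (29.4%, against 0.774% of all genes), all higher (Tef, Per2, Ciart, Cry2 and Per1). Arntl, whose RNA runs opposite to the Per genes in a cycling cell, passed the adjusted p (0.0251) with a log2 fold change of -0.58, short of the threshold. The E-box CACGTG was held by 8.09% of all promoters, by 5 of the 16 listed clock genes in the table and by 3 of its 4 clock DEGs. They are shown because the E-box is the element through which CLOCK and BMAL1 act, with the E-boxes in capitals: chr3:95882247-95882384 (-), chr11:69098743-69098808 (+) and chr15:81802506-81802571 (+), in this order, the last being that of the upstream of 2 starts of Tef, both of which held an E-box.
Ciart: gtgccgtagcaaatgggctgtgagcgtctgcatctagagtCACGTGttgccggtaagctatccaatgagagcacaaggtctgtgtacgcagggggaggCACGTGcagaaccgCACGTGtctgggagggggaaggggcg
Per1: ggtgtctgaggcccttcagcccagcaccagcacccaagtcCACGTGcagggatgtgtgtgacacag
Tef: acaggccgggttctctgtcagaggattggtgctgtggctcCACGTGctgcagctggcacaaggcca

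Ciart, a repressor of the clock that held 3 E-boxes, had 2.68, 2.52 and 1.90 CPM at 12 h and 6.24, 6.75 and 5.35 CPM at 24 h. The groups were far apart, and the level of cells kept in Scm (6.64 ± 0.216 CPM) lay within the 24 h range, which was above that in Rcm (4.92 ± 0.698 CPM). It rose 2.57-fold (log2 fold change 1.36 ± 0.17 SE, adjusted p = 0.00176), and by 1.34 without replicate 1 of 24 h. Per2, a repressor of CLOCK and BMAL1, had 6.24, 7.72 and 3.68 CPM and then 22.4, 12.7 and 13.7 CPM (log2 fold change 1.46, adjusted p = 0.00928). Tef, an output gene of the clock with a PAR leucine zipper, had 33.6, 37.4 and 14.2 CPM and then 120, 68.6 and 76.0 CPM. In Tef both outlying libraries stood out, replicate 3 of 12 h as the lowest and replicate 1 of 24 h as the highest. Tef rose 3.10-fold (log2 fold change 1.63 ± 0.27 SE, adjusted p = 0.00928), and by 1.34 without replicate 1 of 24 h. Cry2 (0.68) and Per1 (0.65) rose less. Rcm and Scm levels of Tef (81.6 ± 3.29 and 83.0 ± 2.56 CPM) both lay within the range at 24 h. Without both outlying libraries the list median was 0.22 and 3 of the 17 were DEGs, as without replicate 1 or replicate 3 of R-Scm 12 h alone.

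Genes of the ATF4 program formed the last rising block. Of 23 tested, 20 were positive (median 0.49). Of the 23, 6 were DEGs (26.1%, against 0.774% of all genes), all higher: Trib3, Chac1, Atf5, Slc7a5, Aldh18a1 and Mthfd2. Slc7a11 had the largest rise of the list (1.44) and was no DEG. Atf4 itself had 0.19 (adjusted p = 0.83). The ATF4 site, searched as TGATGNAA on both strands, was held by 4.51% of all promoters and by 8 of the 23 listed genes with a promoter in the table; among the DEGs it was in Chac1 and Trib3, and in the synthetase genes Aars and Iars. In Trib3 and Iars the match lay after the gene start, as did a second match in Aars, and these are not printed. Those of Chac1 at chr2:119351009-119351076 (+) and Aars at chr8:111033690-111033757 (+) are shown with the site in capitals, which reads on the opposite strand in both.
Chac1: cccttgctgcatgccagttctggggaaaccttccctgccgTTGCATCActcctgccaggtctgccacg
Aars: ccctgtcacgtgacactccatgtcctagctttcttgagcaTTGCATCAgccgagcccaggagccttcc

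The 8 letters of both sites are the same, TTGCATCA. Chac1 encodes an enzyme that degrades glutathione. It had 14.7, 12.2 and 21.5 CPM at 12 h and 26.9, 29.5 and 45.5 CPM at 24 h (log2 fold change 1.08 ± 0.20 SE, adjusted p = 0.0145). Trib3, a pseudokinase that restrains ATF4, had 7.66, 6.74 and 16.6 CPM and then 18, 25.8 and 27.1 CPM (log2 fold change 1.20, adjusted p = 0.033). Replicate 3 of 12 h was the highest of its group for both, so that the fold changes were larger without it (1.34 and 1.71). Slc7a5, the large neutral amino acid transporter LAT1, rose from 110 to 150 CPM to 186 to 256 CPM (log2 fold change 0.84, adjusted p = 0.00522). Atf5 rose by 0.89, Aldh18a1, of proline synthesis, by 0.69, and Mthfd2, of mitochondrial folate metabolism, by 0.59. Mthfd2 was the 1 DEG of the 119 whose libraries overlapped (highest 123 CPM at 12 h, lowest 122 CPM at 24 h). Without replicate 1 of R-Scm 24 h, 11 of the 23 were DEGs, and without replicate 1 or replicate 2 of R-Scm 12 h, or replicate 3 of R-Scm 24 h, 1 was. The list median stayed positive whichever library was left out (0.44 to 0.65).

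Some genes of amino acid metabolism outside that list were DEGs as well, and those named here were not drawn from a list. Gpt2, the mitochondrial alanine aminotransferase (chr8:85492576-85527560), had 33.2, 29.2 and 40.5 CPM at 12 h and 62.9, 71.5 and 70.4 CPM at 24 h, and no library of one group came near the other. It rose 1.99-fold (log2 fold change 0.99 ± 0.10 SE, adjusted p = 0.000138) to the level of Scm (65.2 ± 1.14 CPM). Pck2, which makes phosphoenolpyruvate in mitochondria, rose by 0.85, the glycine transporter Slc6a9 by 0.98 and the serine and alanine transporter Slc1a4 by 0.74. Of 20 cytosolic aminoacyl-tRNA synthetases tested, a list made after their values had been seen, 4 were DEGs (20%, against 0.774% of all genes). They were Cars (0.70), Aars (0.64), Iars (0.61) and Sars (0.58), and the list median was 0.23. The number of DEGs among the 20 was 1 without replicate 1 of R-Scm 12 h or replicate 2 of R-Scm 24 h, and 2 without replicate 2 of R-Scm 12 h or replicate 3 of R-Scm 24 h. Exons of Aars overlap those of Exosc6 on the same strand. Iars had 196, 222 and 250 CPM at 12 h and 329, 357 and 330 CPM at 24 h.

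In the unfolded protein response, Hspa5 fell and Herpud1 rose. Of 18 tested genes of the unfolded protein response 2 were DEGs (11.1%, against 0.774% of all genes), in opposite directions. The list median was -0.26, with 14 negative and 4 positive. At an unadjusted p under 0.05 by edgeR, 9 were lower and 2 higher. Hspa5 (chr2:34771970-34777547) encodes BiP, the main chaperone of the endoplasmic reticulum. It had 829, 837 and 644 CPM at 12 h and 377, 393 and 375 CPM at 24 h, close to Rcm (420 ± 23.8 CPM) and Scm (358 ± 4.51 CPM). It fell 2.02-fold (log2 fold change -1.01 ± 0.16 SE, adjusted p = 0.00659). Herpud1, which helps to clear misfolded protein, rose by 0.93 (adjusted p = 0.0168). Calr (-0.42), Hsp90b1 (-0.56) and Pdia4 (-0.38) passed the adjusted p and not the fold threshold.

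**Figure D4:**
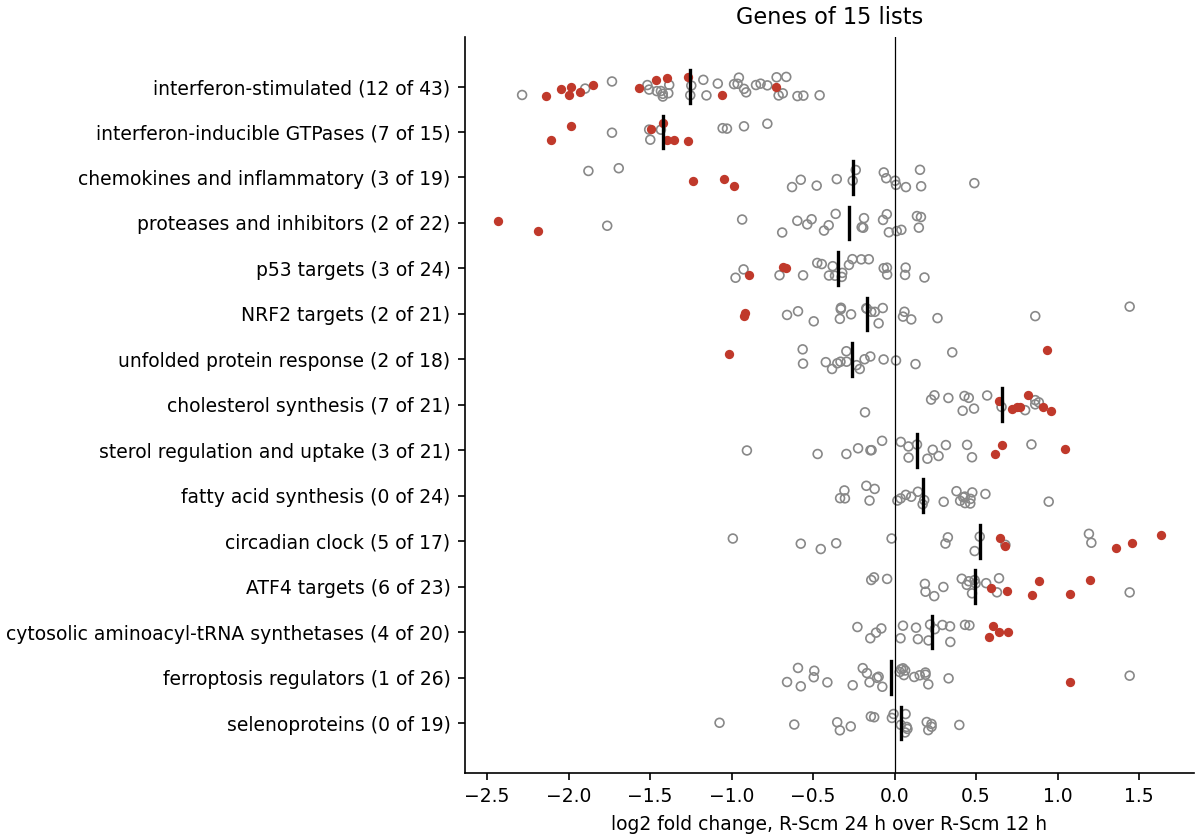
Each point is 1 tested gene of the list named on the y axis, placed by its log2 fold change of R-Scm 24 h over R-Scm 12 h on the x axis; filled points are DEGs, bars are list medians, and the label gives the DEGs of the genes tested. The interferon-stimulated list lies wholly below 0 (median -1.25), and the cholesterol synthesis list lies above 0 with the exception of Ebp (-0.18).

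The NRF2 targets Nqo1 and Gsta4 fell, and with them Ptgr1, which is not in that list. Nqo1, a quinone reductase and NRF2 target, had 204 to 261 CPM at 12 h and 139 CPM or less at 24 h (log2 fold change -0.92 ± 0.11 SE, adjusted p = 0.00111). Gsta4, a glutathione transferase for lipid aldehydes, had 41.6, 42.6 and 39.8 CPM and then 24.7, 20.6 and 20.1 CPM (log2 fold change -0.92 ± 0.10 SE, adjusted p = 0.000598). Ptgr1, a reductase of oxidised lipids, fell by 1.02. Nqo1 and Gsta4 were the 2 DEGs of 21 NRF2 targets tested (9.52%, against 0.774% of all genes). The list median was -0.17, with 6 positive and 15 negative. Its largest change was a rise, that of the cystine transporter gene Slc7a11 (1.44), which was no DEG. Nqo1 and Gsta4 were DEGs without any 1 of the 6 libraries, and without replicate 1 of R-Scm 24 h 4 of the 21 were.

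Some DEGs lay in other lists. Of 24 p53 targets tested, 3 were DEGs (12.5%, against 0.774% of all genes): Eda2r (-0.89), Ercc5 (-0.69) and Ccng1 (-0.67) fell. The list median was -0.34, with 21 negative and 3 positive. At an unadjusted p under 0.05 by edgeR, 13 were lower and 0 higher. Without replicate 3 of R-Scm 12 h, or replicate 3 of R-Scm 24 h, 0 were DEGs. Mt2, a metallothionein, fell by 1.15 with replicate 3 of 12 h the highest library (164 CPM against 83.3 and 75.0), Igfbp4 by 1.58 and the factor gene Klf2 by 0.97. Ndrg1, a hypoxia-responsive gene, rose by 0.63 and was the 1 DEG of 30 genes of glycolysis and hypoxia. Kdm6b, a demethylase of histone H3, rose by 0.90. Gm12758 had the largest rise of the DEGs (log2 fold change 2.34), but it is antisense to 4931406P16Rik, and reads of an antisense pair cannot be told apart where the use of strand is not given.

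Of the 119 DEGs, 70 were in no list, leaving aside the 2 lists added later, and some of these are given here, chosen after their values were seen. Edn1, the precursor of the vasoconstrictor endothelin-1, had 41.3, 44.2 and 72.5 CPM at 12 h and 24.6, 32.4 and 34.0 CPM at 24 h, against 15.6 ± 1.09 CPM in Rcm and 13.4 ± 0.604 CPM in Scm (log2 fold change -0.80, adjusted p = 0.0287). Sema3c, a secreted guidance protein, fell by 0.88 from 152 to 232 CPM to 87.8 to 120 CPM. Alas1, the first enzyme of heme synthesis, fell by 0.67, and Ogdhl, a relative of the oxoglutarate dehydrogenase, by 1.30. On the rising side, Itga3, an integrin chain that binds laminin, went from 45.3 to 55.1 CPM to 71.9 to 104 CPM (log2 fold change 0.77, adjusted p = 0.00928). Jdp2, a repressor of AP-1, rose by 0.87, and the kinase gene Sik3 by 0.60 with 142 to 145 CPM in the 24 h libraries. Edn1, Sema3c and Itga3 had 12 h levels outside the range of their Rcm and Scm means, as did Cxcl10, Mmp3, Hspa5 and Fdps.

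Ferroptosis regulators moved in both directions. Of 26 tested 1 was a DEG (Chac1), 13 were positive and 13 negative (median -0.02), and 5 were higher and 4 lower at an unadjusted p under 0.05. In 9 of the 26 the libraries did not overlap, against 15.2% of all genes, and DESeq2 on the 18 libraries called 3 of them. Gpx4, the lipid peroxide reductase, had 113, 100 and 107 CPM at 12 h and 126, 125 and 119 CPM at 24 h; the libraries did not overlap, but it passed neither threshold (log2 fold change 0.21 ± 0.08 SE, adjusted p = 0.259). Slc7a11, the cystine transporter, had 12.8, 19.0 and 22.7 CPM and then 61.9, 40.5 and 45.9 CPM, also without overlap. Its log2 fold change of 1.44 had an SE of 0.40 and an adjusted p of 0.117, and it passed with DESeq2 on the 18 libraries (adjusted p = 0.00526). Acsl4, which activates polyunsaturated fatty acids, had -0.15 (adjusted p = 0.633). Of 19 selenoprotein genes tested 0 were DEGs by edgeR's quasi-likelihood test, with 3 higher and 3 lower at an unadjusted p under 0.05, and 0 by DESeq2. DNA replication (31 genes, median 0.02), mitosis (28 genes, median 0.03) and collagens and matrix (33 genes, median -0.12) also held 0 DEGs by edgeR, with 4, 2 and 5 genes at an unadjusted p under 0.05. Over all 15381 genes tested, 2092 had an unadjusted p under 0.05 in the same test. The 5 genes of collagens and matrix were all lower. The mean log2 CPM of that list was 7.46, 7.52 and 7.85 at 12 h. At 24 h it was 7.80 in replicate 1 and 7.10 and 7.185 in the other 2.

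The change from 12 h to 24 h was then set beside that of the opposite exchange, S-Rcm, which shares no library with it. There 24 of the 15381 genes were DEGs between 24 h and 12 h (0.156%), and 9 of these were among the 119, which is 7.56% of the 119 and 37.5% of the 24. The 9 were Fdps, its copy Gm3571, Msmo1 and Slc7a5, which rose in both, and Gsta1, Gsta4, Nqo1, Ptgr1 and Esd, which fell in both. The 51 higher DEGs had a median of 0.36 in S-Rcm, with 48 positive, against 47.2% of all genes. The 68 lower DEGs had a median of -0.38, with 57 negative, against 52.8% of all genes.

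Values of single genes differed in how alike the exchanges were. Gsta4 fell in both, by 0.92 in R-Scm and by 1.64 in S-Rcm (adjusted p = 3.56e-07 there), and Nqo1 fell by 0.92 and by 1.05. Fdps rose by 0.96 and by 0.78, Msmo1 by 0.64 and by 0.92, and Slc7a5 by 0.84 and by 0.70. The interferon-stimulated list had a median of -1.25 in R-Scm and of -0.21 in S-Rcm. The difference between the exchanges was tested as an interaction of time and direction, and 0 genes passed (smallest adjusted p = 0.201), with 917 genes at an unadjusted p under 0.05, 64 of them among the 119. Of the 43 interferon-stimulated genes 20 were at that unadjusted p, and of the 21 cholesterol synthesis genes 1 was. Without replicate 1 of R-Scm 24 h the same test called 29 genes, and DESeq2 on the 18 libraries called 10. Gsta4 had an unadjusted interaction p of 0.000145. Replicate 1 was also the highest of the S-Rcm 24 h libraries for the cholesterol list (mean log2 CPM 7.22 against 7.02 and 7.07) and the interferon list (2.37 against 1.94 and 1.98). Across genes its deviation from the group mean correlated at 0.146 with that of replicate 1 of R-Scm 24 h. The other pairs of R-Scm 24 h and S-Rcm 24 h libraries gave -0.221 to 0.139, all below this value. For collagens and matrix, replicate 1 was also the highest at 24 h in both exchanges (7.80 against 7.10 and 7.185 in R-Scm, 7.80 against 7.31 and 7.35 in S-Rcm). For chemokine and inflammatory genes it was the lowest in R-Scm (4.32 against 4.79 and 4.78) and the highest in S-Rcm (4.64 against 4.48 and 4.47). Whether the libraries of the exchanges share a batch was not tested.

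**Figure D5:**
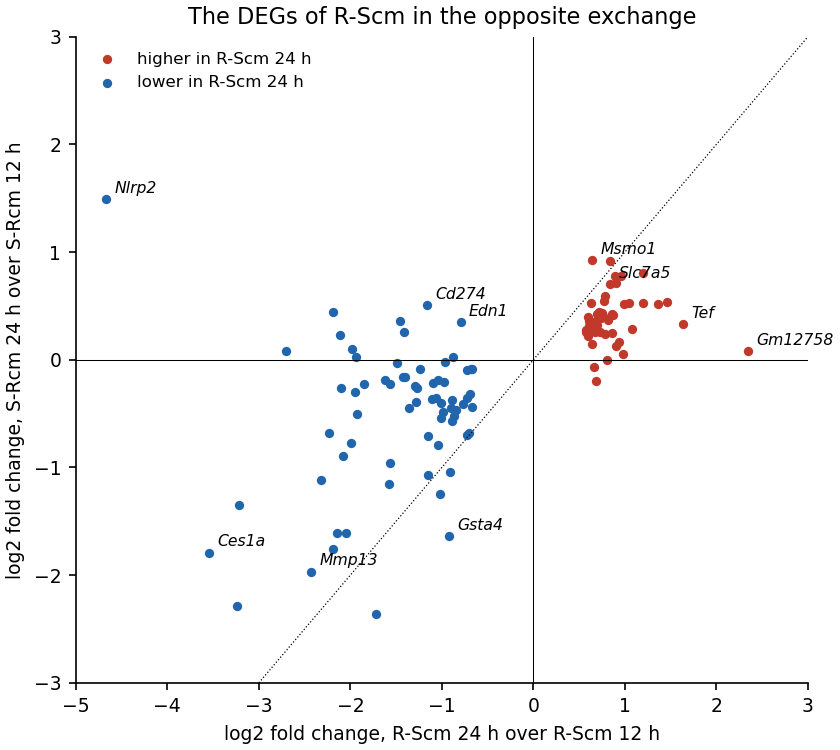
Each point is 1 of the 119 DEGs, with its log2 fold change of 24 h over 12 h in R-Scm on the x axis and in S-Rcm on the y axis; the dotted line marks equal values. Most higher DEGs (red, 48 of 51) are above 0 on the y axis and most lower DEGs (blue, 57 of 68) are below 0, mostly at smaller values than in R-Scm.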

How the data were processed

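RNA-seq of mouse embryonic fibroblasts in 6 groups of 3 libraries was used. RNA was taken with the RNeasy mini kit, libraries were made with an ABclonal mRNA-seq kit and were sequenced as read pairs on a NovaSeq 6000. The authors aligned the reads to GRCm38 (HISAT2 2.0.5, per the submitters' processing notes), and the deposited table holds raw counts per gene for 55487 genes. The counting tool, its use of strand and its treatment of reads with several alignments are not given in the sources used here. All 18 libraries were used and 0 columns were left out. Library totals were 14534906 to 20313715 counts.

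The 18 libraries were fitted together in R 4.3.3 with edgeR 4.0.16 (TMM scaling, filterByExpr by group, robust quasi-likelihood test), and R-Scm 24 h was contrasted with R-Scm 12 h. The filter removed 40106 genes and left 15381. The common dispersion was 0.02983, a biological coefficient of variation of 0.1727. CPM values carry the TMM factors, and log2 values used a prior count of 2. The difference between the exchanges was the interaction of time and direction in the same fit. The steps were tested on simulated counts.

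The gene lists and the genes named were chosen with earlier results of these data known. Named were, among DEGs whose libraries did not overlap and whose mean CPM over the 6 libraries reached 1, the 15 largest rises and the 15 largest falls, every DEG of the lists, and Srebf1, Srebf2, Scd1, Fdps, Insig1, Gpx4, Slc7a11 and Acsl4, except for a few genes that are not reported here; other genes named were picked after their values were seen. Alternatives were other scalings, thresholds and filters, a replicate block, the compared groups alone, DESeq2 1.42.0 and each library left out. Exact permutation of 3 against 3 libraries cannot give a p below 0.1, so that single genes were tested only in the fit across genes. Promoters (250 bases before to 50 after a gene start, 27025 genes) came from RefSeq on GRCm38.p6, with 86 of the 119 DEGs matched by symbol. Gene positions came from GENCODE M21 on GRCm38. Figures were drawn with matplotlib 3.10.9.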

Additional observations from a re-analysis of the deposited data

How the results depend on the processing

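No DEG of the 119 changed sign in any of the 16 alternatives. Cxcl10 was called in all of them, 29 genes were called in all but the edgeR fit on the compared groups alone, and 34 were called whichever of the 6 libraries was left out. An adjusted p under 0.01 left 42 DEGs (21 higher and 21 lower), and the adjusted p alone gave 173 (86 higher, 87 lower). RLE scaling gave 118, upper-quartile scaling 114, no filter 107, and at least 10 counts in every library 99. edgeR on the compared groups alone called 2 (1 higher, 1 lower), and only the lower one was among the 119. That fit had fewer libraries to estimate the spread. The R-Scm 24 h libraries also lay farther from their own group (root mean square log2 difference 0.586 to 0.626) than those of any other group (0.554 or less). DESeq2 called 234 on the 18 libraries (91 higher, 143 lower) and 132 on the compared groups. Leaving out 1 library gave 57 (without R-Scm 24 h replicate 3) to 309 DEGs (without R-Scm 24 h replicate 1), with 30 to 84 higher and 27 to 225 lower; without R-Scm 12 h replicate 3 it was 71. An alternative chosen after seeing the data, without both R-Scm 12 h replicate 3 and R-Scm 24 h replicate 1, gave 219 DEGs (76 higher, 143 lower), 76 of them among the 119, and 38 genes with an interaction. The cause of these differences was not tested.

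The interaction called 0 genes by edgeR on the 18 libraries, 1 by edgeR and 9 by DESeq2 on the 4 groups of the exchanges, 10 by DESeq2 on the 18 libraries, and 0 to 29 with 1 library left out (29 without R-Scm 24 h replicate 1). Over the genes named by the rule, 806 values under the alternatives lay on the same side of the threshold, 253 no longer passed it with the same direction, and 2 passed it only there, both for Slc7a11 by DESeq2.

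With the replicate block 119 genes were DEGs (51 higher, 68 lower), 107 of them the same genes. The deviations of same-numbered libraries at 12 h and 24 h correlated at -0.0525, -0.027 and -0.0493, against -0.0915 to 0.139 for libraries with different numbers. These values show no shared deviation by number, but they cannot tell whether such libraries were cultured or prepared together. Between the exchanges the correlations of same-numbered libraries were 0.0455, 0.00357 and -0.0187 at 12 h and 0.146, -0.0223 and 0.119 at 24 h. With the replicate block the interaction called 0 genes. The numbers used here and in the block are those of the sample titles. The deposited column names number the libraries of R-Scm 12 h and S-Rcm 12 h differently, so that a match by column name could give other pairs.

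Depth limits genes near 3 counts a library, which is 0.173 CPM at 24 h, and 6 of the 119 had a mean under 1 CPM. Replicates of 1 group differed by more than counting noise. With 3 libraries a group, 2092 genes had an unadjusted p under 0.05.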

Other observations

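A few gene models outside the DEGs were at 0 in 1 group. Gm37108, a processed pseudogene, had 0 counts in all 3 libraries of R-Scm 12 h and 62, 105 and 118 counts in those of R-Scm 24 h. Its adjusted p was 0.0823 by edgeR's quasi-likelihood test. Gm43720 had 0 counts in the 3 libraries at 12 h and 14, 14 and 18 at 24 h (adjusted p = 0.136 by the same test). Pcdhga9, of the clustered protocadherins, had 2207 counts in replicate 1 of R-Scm 12 h and 10 counts in each of the other 2, and 41, 8 and 4 counts at 24 h.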
